A study of Mus musculus with 36 samples.

Results

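The genes of cholesterol and fatty acid synthesis were followed across a Chd8 allelic series in the mouse embryonic forebrain, where Chd8 encodes a chromatin remodeller. They were a list of 31 genes, taken by symbol from 46603 genes in each of the count tables of the 2 stages. The list was chosen with earlier results of these data known, so the shares of all genes beside its counts are no independent test. The list held 18 enzymes of sterol synthesis, 5 regulators of the pathway, 7 genes of fatty acid synthesis and 1 sterol carrier, and all 31 passed the filter on low counts at both stages. At E12.5 the regulators Insig1 and Srebf1 and a few sterol enzymes were up to 1.33-fold higher in 2 hypomorphic genotypes than in wildtype. At E10.5 most sterol enzymes and Insig1 were lower in conditional knockouts than in controls. Of 15 genes called in the knockouts, 6 kept their call under every alternative tried and without any one library, and Insig1 was not among them.

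Cholesterol is made from acetyl-CoA by way of mevalonate, isoprenoid diphosphates, squalene and lanosterol, and the last enzymes rework the sterol rings. The pathway is governed by the SREBP transcription factors, encoded by Srebf1 and Srebf2, which SCAP escorts from the endoplasmic reticulum to the Golgi and which the INSIG proteins hold back when sterols are plentiful. Insig1 is itself a target gene of the SREBPs. Because little cholesterol crosses the blood-brain barrier once it has formed, the brain then makes its own. Dividing neural progenitors use sterols and fatty acids for new membranes.

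At E12.5 neocortices of single embryos were sequenced, 3 per genotype, from wildtype embryos (WT), Chd8+/- heterozygotes with 1 null allele, Chd8 neo/neo mild hypomorphs and Chd8 neo/- severe hypomorphs, which carry 1 neo and 1 null allele. In the neo allele a neomycin cassette in an intron lowers expression, the null allele was made by deleting exon 3 with β-actinCre, and both are germline alleles present in every tissue. At E10.5 telencephalic vesicles, labelled as cortex, of controls (Ctrl, described as a combination of Chd8 f/f and f/+) were compared with conditional knockouts (cKO, Sox1-Cre; Chd8 f/f), with 3 libraries in each group and the RNA of 2 embryos pooled in each library. Sox1-Cre acts in the early neural plate, so cells of other origin in the vesicles keep their Chd8 alleles. The mice were on a C57Bl/6J background, and the mutant genotypes at E12.5 were all compared with the same 3 wildtype libraries.

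Levels are given as CPM, a gene's count as a share of its library's total scaled by TMM factors, and changes as log2 fold change ± SE. A gene was called when the adjusted p was under 0.05 in edgeR's quasi-likelihood test with Benjamini-Hochberg adjustment over all genes tested (18810 at E12.5, 18435 at E10.5). Libraries held 38774591 to 68488879 counts. Chd8 itself, counted over the whole gene and so without separating full-length from truncated transcripts, stood at 235 to 239 CPM in wildtype, 165 to 170.2 CPM in Chd8+/-, 203 to 213 CPM in mild and 142 to 158 CPM in severe hypomorphs, and at 160.0 to 184 CPM in Ctrl and 116 to 125 CPM in cKO. Every mutant library lay below every control library of its stage. The forebrain markers Emx1, Emx2 and Lhx2 were present throughout. Lhx2 ranged over 358 to 499 CPM at E12.5 and 243 to 304 CPM at E10.5, and Emx1, the lowest of these, over 35.8 to 69.3 CPM and 24.1 to 39.2 CPM.

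Promoter windows of 25 of the 31 genes were matched in RefSeq (GRCm38.p6). Those of 4 genes are shown because their calls differed. Insig1 was called in opposite directions at the 2 stages. Hmgcs1 and Sc5d were called against their controls only in cKO, and Mvk only in the hypomorphs. The effect on Mvk was not called different between cKO and either hypomorph in the direct tests described below. Each runs 5′ to 3′ toward the start of its gene, that of Insig1 stops before the first exon base of the count table, and capitals mark the sterol regulatory element core TCACNCCA, the CCAAT box and the E-box CACGTG, on either strand.
Insig1: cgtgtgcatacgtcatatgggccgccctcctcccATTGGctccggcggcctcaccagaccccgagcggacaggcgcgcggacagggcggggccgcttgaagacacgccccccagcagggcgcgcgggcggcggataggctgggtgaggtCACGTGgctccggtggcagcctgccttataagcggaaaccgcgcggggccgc
Hmgcs1: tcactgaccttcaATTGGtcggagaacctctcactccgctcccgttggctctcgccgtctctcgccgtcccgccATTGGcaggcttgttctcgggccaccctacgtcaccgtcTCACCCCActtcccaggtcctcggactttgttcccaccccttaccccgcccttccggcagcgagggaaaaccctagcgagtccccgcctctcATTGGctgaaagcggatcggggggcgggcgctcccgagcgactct
Sc5d: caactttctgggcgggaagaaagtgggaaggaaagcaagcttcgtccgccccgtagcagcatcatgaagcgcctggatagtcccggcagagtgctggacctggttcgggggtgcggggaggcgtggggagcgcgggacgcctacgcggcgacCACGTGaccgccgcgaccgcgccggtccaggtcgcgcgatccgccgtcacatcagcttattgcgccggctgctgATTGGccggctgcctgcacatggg
Mvk: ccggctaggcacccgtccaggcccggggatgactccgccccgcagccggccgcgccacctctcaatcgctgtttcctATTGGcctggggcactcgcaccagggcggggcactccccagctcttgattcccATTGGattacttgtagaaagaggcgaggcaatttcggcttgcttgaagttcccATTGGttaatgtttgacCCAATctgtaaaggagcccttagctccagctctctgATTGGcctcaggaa
They lie at chr5:28071162-28071362 (plus strand, Insig1), chr13:119690101-119690350 (plus strand, Hmgcs1), chr9:42264301-42264550 (minus strand, Sc5d) and chr5:114444019-114444268 (plus strand, Mvk). The Hmgcs1 window holds 1 sterol regulatory element core, 137 to 130 bases before the start, with 3 CCAAT boxes, and the Mvk window holds 5 CCAAT boxes and no core. The Insig1 and Sc5d windows hold 1 CCAAT box and 1 E-box each. Over the 250 bases before each start, the CCAAT box was found in 21 of 34 windows of these genes (61.8%), against 33.8% of all 32851 windows and 34.8% of those of genes tested. The core TCACNCCA was found in 3 windows (Hmgcs1, Msmo1 and Srebf2), against 3.67% of all, and its longer form TCACNCCAC, which contains the core, in the Hmgcs1 window, against 1.05% of all. The E-box was found in 5 windows (6.02% of all), and the GC box GGGCGG in 24 (32.7% of all, 54.1% of those of genes tested). The windows of these genes were also richer in G and C, with a median of 62.6% against 59.2% over the windows of genes tested and 52.4% over all windows. These matches describe letters and not bound sites.

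Levels per kilobase of exon allow a rough comparison between genes. The length used sums all listed exons of a gene and can be longer than its transcripts. On this scale Scd2, a fatty acid desaturase gene, had the highest level in wildtype neocortex at 312 CPM per kb. It was followed by Hmgcs1 (186), the citrate lyase gene Acly (104), Srebf2 (67.9) and the fatty acid synthase gene Fasn (64.7). The lowest levels were those of the malic enzyme gene Me1 (3.12), Fdps (4.04) and the sterol isomerase gene Ebp (4.53 CPM per kb). Fdps shares 26.7% of its exon bases with Gm43738 on the same strand, so its level may be undercounted. Srebf2 stood above Srebf1 (13.8), and Insig1 (27.4) above Insig2 (6.54 CPM per kb). In Ctrl vesicles at E10.5, which were scaled separately, Scd2 (320.0 CPM per kb) and Hmgcs1 (206) again led.

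**Figure D1:**
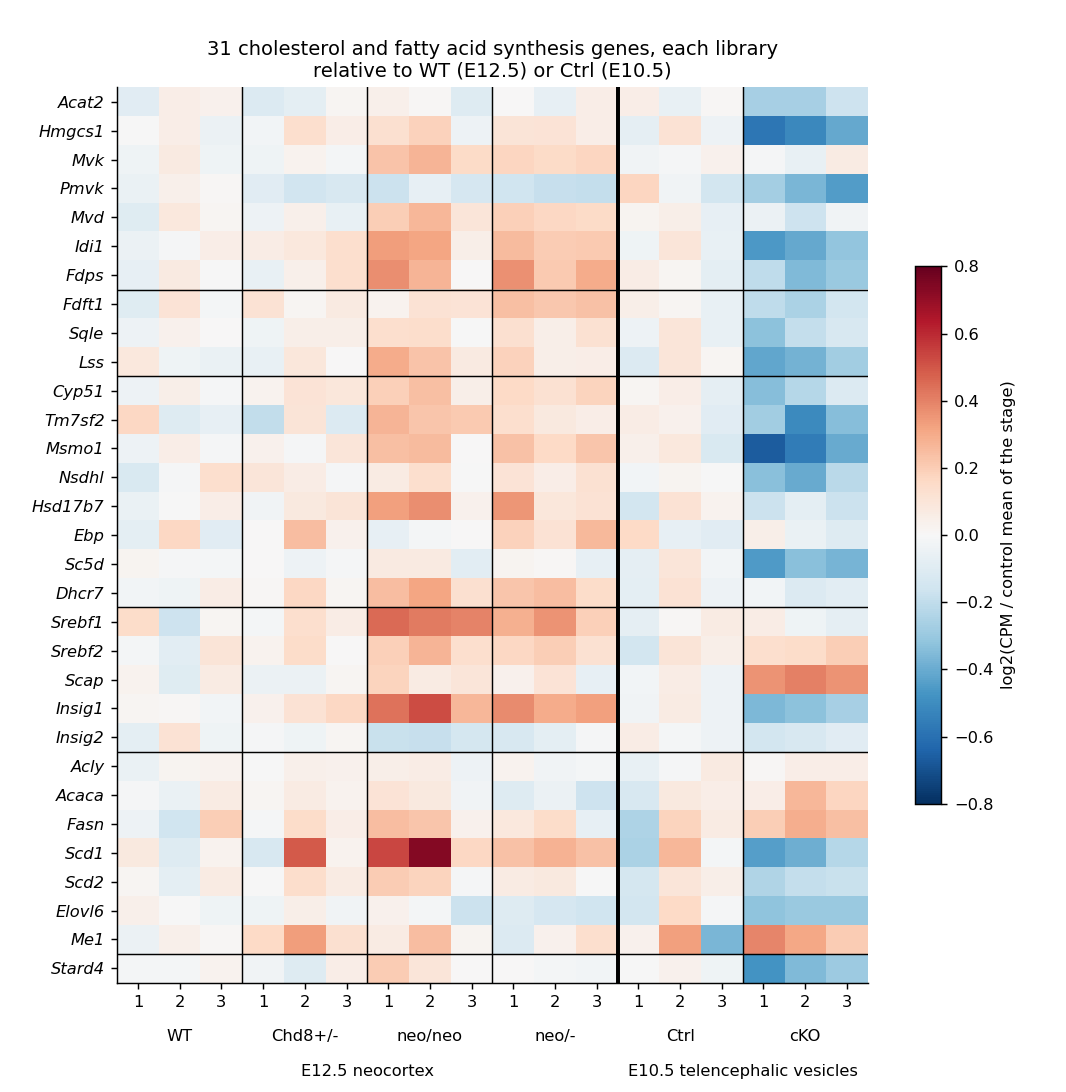
Level of each of the 31 genes (rows, lines between roles) in each of 18 libraries (columns, by group and replicate number), as the log2 ratio of its CPM to the control mean of its stage (red higher, blue lower). Rows of sterol enzymes are mostly red in Chd8 neo/neo libraries 1 and 2 and in Chd8 neo/-, and mostly blue in cKO.

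In Chd8 neo/neo neocortex 6 of the 31 genes were called higher, against 3.71% of all genes tested, and none lower, against 4.45%. In Chd8 neo/- neocortex 8 were called higher, against 5.48% of all genes, and 1 lower, against 5.99%. Among the 18 sterol enzymes 3 were called higher in mild and 6 in severe hypomorphs, with median log2 fold changes of 0.17 and 0.16 where the medians over all genes were 0.01 and 0.00. All mutant libraries lay above all wildtype libraries for 9 of the 31 genes in mild hypomorphs, against 12.5% of all genes, and for 15 in severe hypomorphs, against 16.4%.

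Of the regulators, Insig1, the retention protein that follows SREBP activity, stood at 85.8, 85.3 and 83.5 CPM in wildtype, 115, 122 and 102 CPM in mild and 110.5, 104 and 106 CPM in severe hypomorphs. All 6 hypomorph libraries lay above all wildtype libraries. The log2 fold change was 0.41 ± 0.06 (adjusted p = 0.00161) in Chd8 neo/neo and 0.34 ± 0.06 (adjusted p = 0.00191) in Chd8 neo/-, and both calls were kept under every alternative processing tried and without any one library. Insig2, the other INSIG gene, stood at 21.4, 24.6 and 22.1 CPM in wildtype, 20.01, 19.9 and 20.6 CPM in mild and 20.7, 21.5 and 22.6 CPM in severe hypomorphs. Its Chd8 neo/neo libraries lay below wildtype and its Chd8 neo/- libraries overlapped it, and neither difference was called (adjusted p = 0.0841 and 0.483).

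Srebf1, the SREBP gene tied most to fatty acid synthesis, stood at 85.9, 69.2 and 78.3 CPM in wildtype, 106, 103 and 102 CPM in mild and 94.3, 99.2 and 88.4 CPM in severe hypomorphs. Both hypomorphs lay above wildtype, by 0.41 ± 0.07 (adjusted p = 0.00445) and 0.27 ± 0.07 (adjusted p = 0.0199) on the log2 scale. Srebf2, the SREBP gene tied most to sterol synthesis, stood at 335, 319 and 363 CPM in wildtype, 386, 408 and 371 CPM in mild and 379, 389 and 368 CPM in severe hypomorphs. The groups again did not overlap, and the difference was called in Chd8 neo/neo (0.20 ± 0.06, adjusted p = 0.047) but not in Chd8 neo/- (0.16 ± 0.06, adjusted p = 0.0837). Scap, the gene of the SREBP escort, stood at 70.5, 64.8 and 72.3 CPM in wildtype, 78.3, 72.4 and 74.1 CPM in mild and 70.9, 74.5 and 66.0 CPM in severe hypomorphs. Only the Chd8 neo/neo libraries lay clear of wildtype, and neither difference was called (adjusted p = 0.21 and 0.825).

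Of the 7 genes of the mevalonate stage, 2 were called higher in Chd8 neo/neo, and 3 higher and 1 lower in Chd8 neo/-. Mvk, the mevalonate kinase gene, stood at 33.7, 36.3 and 33.7 CPM in wildtype, 40.6, 41.7 and 38.5 CPM in mild and 39.0, 38.5 and 38.9 CPM in severe hypomorphs. All hypomorph libraries were higher, by 0.22 ± 0.05 (adjusted p = 0.0161) and 0.17 ± 0.05 (adjusted p = 0.0404). Idi1, whose enzyme isomerises isopentenyl diphosphate, stood at 193, 199 and 207 CPM in wildtype, 252, 248 and 206 CPM in mild and 238, 229 and 231 CPM in severe hypomorphs. It was called in both (0.24 ± 0.06, adjusted p = 0.0319, and 0.22 ± 0.06, adjusted p = 0.0334), although the third Chd8 neo/neo library lay within the wildtype range. The farnesyl diphosphate synthase gene Fdps, at 16.2 to 17.9 CPM in wildtype and 19.7 to 21.9 CPM in Chd8 neo/-, was called in Chd8 neo/- (0.29 ± 0.09, adjusted p = 0.0402), with the limit that 26.7% of its exon bases are shared with Gm43738.

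Pmvk, the phosphomevalonate kinase gene of the next step after Mvk, went the other way, at 29.2, 31.2 and 30.5 CPM in wildtype, 26.9, 28.9 and 27.6 CPM in mild and 27.2, 26.7 and 26.6 CPM in severe hypomorphs. All hypomorph libraries were lower, and the difference was called in Chd8 neo/- (-0.18 ± 0.05, adjusted p = 0.0297) but not in Chd8 neo/neo (-0.12 ± 0.05, adjusted p = 0.121). Hmgcs1, the HMG-CoA synthase gene, stood at 600.3, 624 and 583 CPM in wildtype, 658, 684 and 585 CPM in mild and 646, 648 and 624 CPM in severe hypomorphs. Neither difference was called (adjusted p = 0.358 and 0.39), and neither were those of the decarboxylase gene Mvd and the thiolase gene Acat2.

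In the squalene stage Fdft1, the squalene synthase gene, stood at 131, 151 and 138 CPM in wildtype, 143, 152 and 151 CPM in mild and 166, 162 and 164 CPM in severe hypomorphs. Only the Chd8 neo/- libraries lay clear of wildtype (0.23 ± 0.05, adjusted p = 0.00835), and Ctsb on the opposite strand covers 26.8% of the exon bases of Fdft1. Lss, the lanosterol synthase gene, stood at 102, 93.8 and 92.6 CPM in wildtype, 118, 112 and 101 CPM in mild and 109, 99.2 and 99.5 CPM in severe hypomorphs. It overlapped wildtype and was not called (adjusted p = 0.0619 and 0.367), and neither was the squalene epoxidase gene Sqle (adjusted p = 0.227 and 0.187).

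Of the 8 genes of the sterol ring stage, Dhcr7, whose reductase yields cholesterol, was called in both hypomorphs. It stood at 73.3, 72.8 and 77.6 CPM in wildtype, 88.3, 92.7 and 81.5 CPM in mild and 87.1, 88.3 and 82.4 CPM in severe hypomorphs, without overlap and with log2 fold changes of 0.23 ± 0.06 (adjusted p = 0.0248) and 0.21 ± 0.06 (adjusted p = 0.0306). Msmo1, the methylsterol monooxygenase gene, stood at 121, 129 and 123 CPM in wildtype, 147, 148 and 125 CPM in mild and 146, 139 and 145 CPM in severe hypomorphs. It was called in Chd8 neo/- (0.21 ± 0.06, adjusted p = 0.0334) and, with the third library in the wildtype range, not in Chd8 neo/neo (0.17 ± 0.06, adjusted p = 0.0817).

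The sterol reductase gene Tm7sf2, which shares 15.3% of its exon bases with Vps51, stood at 23.1, 19.2 and 19.7 CPM in wildtype, 24.9, 24.1 and 23.9 CPM in mild and 22.7, 21.8 and 21.4 CPM in severe hypomorphs. Its Chd8 neo/neo libraries lay above wildtype without a call (0.23 ± 0.08, adjusted p = 0.0902). Nsdhl, an X-linked sterol dehydrogenase gene, stood at 54.0, 58.2 and 64.3 CPM in wildtype, 61.5, 64.3 and 58.5 CPM in mild and 63.4, 60.8 and 64.0 CPM in severe hypomorphs. Sc5d, a sterol desaturase gene, stood at 54.2, 53.1 and 52.8 CPM in wildtype, 56.0, 56.0 and 50.3 CPM in mild and 54.3, 53.8 and 51.1 CPM in severe hypomorphs. Both overlapped wildtype and were not called, nor were Cyp51, Hsd17b7 and the X-linked Ebp.

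None of the 7 fatty acid synthesis genes was called by edgeR in either hypomorph, with 1 at an unadjusted p under 0.05 in mild and 2 in severe hypomorphs, and DESeq2 called Scd1 in mild hypomorphs and 0 in severe hypomorphs. Scd1, a desaturase gene closely related to Scd2, had the largest log2 value of the 31 genes in Chd8 neo/neo (0.49 ± 0.17), with 53.4 to 79.2 CPM against 44.2 to 50.2 CPM in wildtype, but was not called (adjusted p = 0.102). Elovl6, a fatty acid elongase gene, stood at 131, 127 and 124 CPM in wildtype, 131, 126 and 113 CPM in mild and 119, 116 and 114 CPM in severe hypomorphs. Its Chd8 neo/- libraries lay below wildtype without a call (-0.13 ± 0.05, adjusted p = 0.0959). Stard4, the gene of a sterol transfer protein, stood at 75.2, 75.2 and 77.4 CPM in wildtype, 87.5, 81.2 and 76.0 CPM in mild and 76.2, 75.2 and 74.7 CPM in severe hypomorphs, overlapped wildtype in both and was not called.

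Of the enzymes of both branches not yet described, 6 were not called in either hypomorph. Acly, which supplies cytosolic acetyl-CoA from citrate, ranged over 529 to 559.6 CPM in wildtype, 532 to 571 CPM in mild and 537 to 559 CPM in severe hypomorphs. Acaca, the acetyl-CoA carboxylase gene, ranged over 194.7 to 211 CPM in wildtype, 198 to 218 CPM in mild and 181 to 196 CPM in severe hypomorphs. Me1, which supplies NADPH, ranged over 11.6 to 12.3 CPM in wildtype, 12.2 to 14.3 CPM in mild and 11.2 to 13.2 CPM in severe hypomorphs. Their log2 fold changes in mild hypomorphs were 0.02 ± 0.04, 0.05 ± 0.05 and 0.12 ± 0.08, in that order. Cyp51, the lanosterol demethylase gene, ranged over 189.7 to 201 CPM in wildtype, 201 to 229.8 CPM in mild and 212 to 220.4 CPM in severe hypomorphs. Hsd17b7, a sterol ketoreductase gene, ranged over 28.1 to 30.3 CPM in wildtype, 29.8 to 37.7 CPM in mild and 31.1 to 37.1 CPM in severe hypomorphs. Ebp ranged over 9.78 to 11.7 CPM in wildtype, 9.95 to 10.5 CPM in mild and 11.3 to 12.4 CPM in severe hypomorphs.

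**Figure D2:**
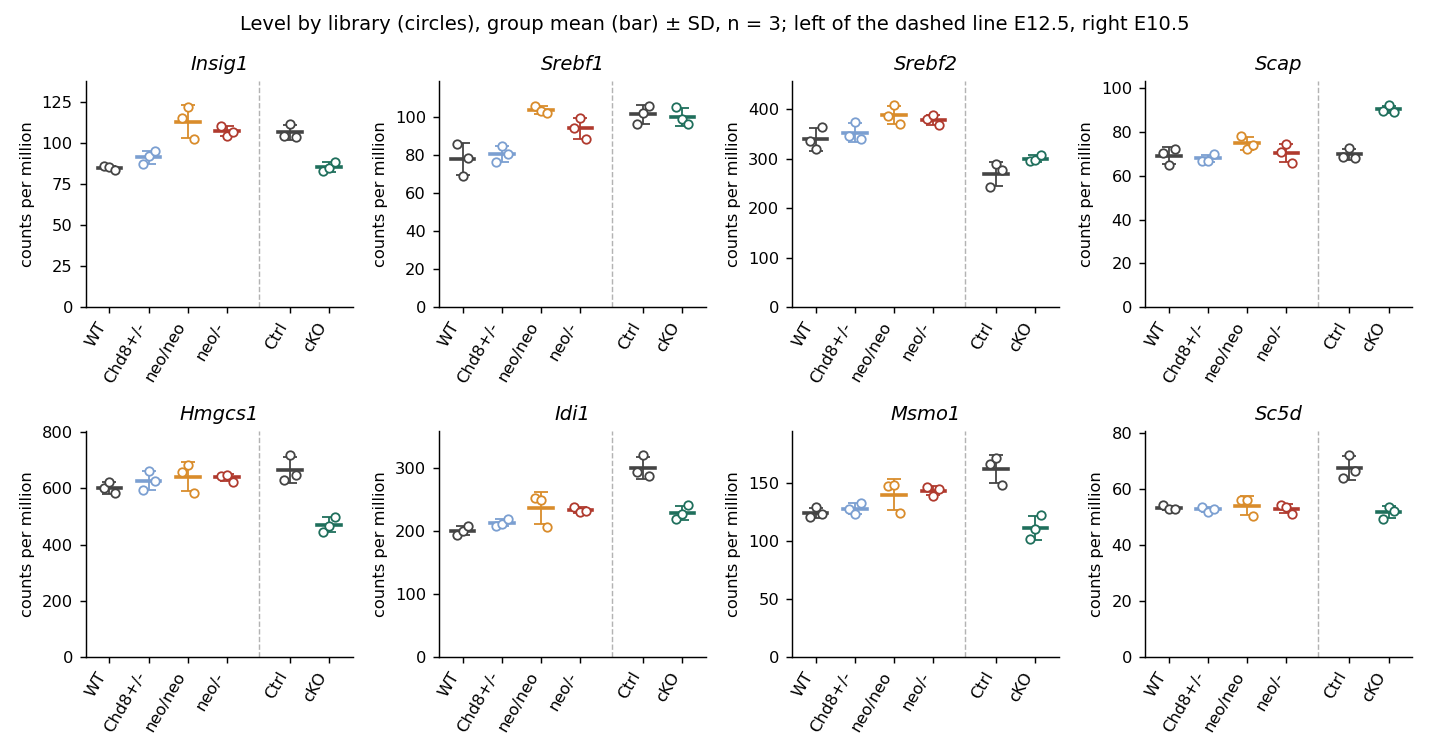
CPM (y axes, from 0) of 4 regulators and 4 sterol enzymes in each library (circles), with the group mean (bar) ± SD, n = 3, for the genotypes at E12.5 and, right of the dashed line, Ctrl and cKO at E10.5. Insig1 is higher in both hypomorphs than in WT and lower in cKO than in Ctrl, and Scap is higher in cKO.

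The third Chd8 neo/neo library stood apart from the other 2 of its group. Averaged over the 18 sterol enzymes, the log2 ratio to the wildtype mean was 0.163, 0.184 and 0.03 in the Chd8 neo/neo libraries 1 to 3, 0.162, 0.099 and 0.122 in Chd8 neo/- and -0.034, 0.033 and 0.001 in wildtype. Without Chd8 neo/neo replicate 3, 14 of the 31 genes were called in that genotype. Without its replicate 1 or 2 only Insig1 and Srebf1 were. The share of all genes called in fits without a library is not given, here or below. Such counts therefore do not show a shift particular to the list. In Chd8 neo/- only Insig1 and Fdft1 were called without its replicate 1 or 2, and these calls of Insig1 and Fdft1 were kept without any one library. Fdft1 was lost with the trends of counts with gene length and GC content removed (adjusted p = 0.0535).

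The calls of Insig1 and Srebf1 in Chd8 neo/neo were also kept without any one library, and the other calls against wildtype were not. In Chd8 neo/neo, Mvk was lost without wildtype replicate 3 or Chd8 neo/neo replicate 1 or 2 (highest adjusted p = 0.0805), and Dhcr7 without replicate 1 or 2 of either group (0.12). Idi1 was lost without those same 4 libraries or Chd8 neo/- replicate 1 (highest adjusted p = 0.142). Srebf2 was kept only without wildtype replicate 3, Chd8+/- replicate 2 or Chd8 neo/neo replicate 3 (highest adjusted p = 0.195). In Chd8 neo/-, Srebf1 was lost without wildtype replicate 2 or Chd8 neo/- replicate 1 or 2 (highest adjusted p = 0.0914), and Dhcr7 without replicate 1 or 2 of either group (0.119). Idi1 and Fdps were lost without any one library of either group (highest adjusted p = 0.119 and 0.149). Msmo1 was lost without any Chd8 neo/- library or wildtype replicate 1 or 3 (highest adjusted p = 0.117), and Pmvk without any Chd8 neo/- library or wildtype replicate 2 or 3 (0.11). Mvk was kept only without wildtype replicate 2, Chd8+/- replicate 2 or Chd8 neo/neo replicate 2 or 3 (highest adjusted p = 0.121).

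The calls of Insig1 and Srebf1 against wildtype were kept in both hypomorphs under the other processing alternatives too. In Chd8 neo/neo, Mvk was lost with the second sequencing run alone, where its log2 fold change was 0.13 (adjusted p = 0.236), with length and GC trends removed and with only the 2 groups fitted. Dhcr7, Idi1 and Srebf2 were lost in that fit of 2 groups and with the Xist class, described below, as a covariate, Dhcr7 and Srebf2 with the second run alone, and Srebf2 under 3 more alternatives, of which the replicate block also lost Idi1. The removal of length and GC trends lost, in Chd8 neo/-, Mvk, Idi1, Fdps and Dhcr7 besides Fdft1, and the replicate block lost Mvk, Idi1, Fdps, Msmo1 and Pmvk. The second run alone lost Mvk, Fdps, Dhcr7 and Pmvk there. Mvk and Pmvk were also lost with no filter and with the Xist class, and Mvk with only the 2 groups fitted.

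Neuron markers went the other way from most of these genes in the hypomorphs at E12.5. The 10 markers (Tubb3, Dcx, Stmn2, Map2, Gap43, Neurod2, Neurod6, Tbr1, Nhlh1 and Elavl3) summed to 3917 to 4626 CPM in wildtype, 4021 to 4707 in Chd8+/-, 3238 to 3815 in mild and 3589 to 4007 in severe hypomorphs. All 10 had negative log2 fold changes in both hypomorphs. Map2 and Dcx were called lower in each, against 4.45% of all genes in mild and 5.99% in severe hypomorphs. Their mean log2 ratio to wildtype was -0.443, -0.53 and -0.054 in the Chd8 neo/neo libraries 1 to 3. In Chd8 neo/- it was -0.157, -0.194 and -0.072. Chd8 neo/neo replicate 3 thus lay closest to 0 of its group in both measures. Chd8 neo/- replicate 2, however, had the lowest mean of its group for the neuron markers and also for the sterol enzymes (0.099). Of 8 radial glia markers, Pax6 and Sox2 were called higher in mild hypomorphs, against 3.71% of all genes, and none in severe hypomorphs. The sums of all 8 overlapped, at 2671 to 2882 CPM in wildtype, 2674 to 3075 in mild and 2874 to 2912 in severe hypomorphs. In severe hypomorphs 3 of 7 erythroid markers were called higher, against 5.48% of all genes (sums of 4381 to 6986 CPM against 3060 to 3758 in wildtype).

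The Chd8 neo/neo replicates 1 and 2 were also Xist-expressing libraries, as were wildtype replicate 3 and Chd8+/- replicate 1, and no Chd8 neo/- library was. With this class as a covariate, 3 of the 31 genes were called in Chd8 neo/neo (Insig1, Srebf1 and Mvk) and 8 in Chd8 neo/-, where Mvk and Pmvk lost their calls. At E10.5 all 3 cKO pools held RNA of Xist (707 to 1071 CPM) together with that of 4 Y-linked genes (summed 69.9 to 135 CPM), while Ctrl replicates 1 and 3 expressed Xist without the Y-linked genes and Ctrl replicate 2 the reverse. No fit with this class was made at E10.5, where every cKO library and no Ctrl library was mixed, so that this mixture and the genotype cannot be told apart. In bulk tissue fewer cells of a type and less RNA per cell cannot be told apart, and the part of cell composition or of the Xist class in these differences was not tested.

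**Figure D3:**
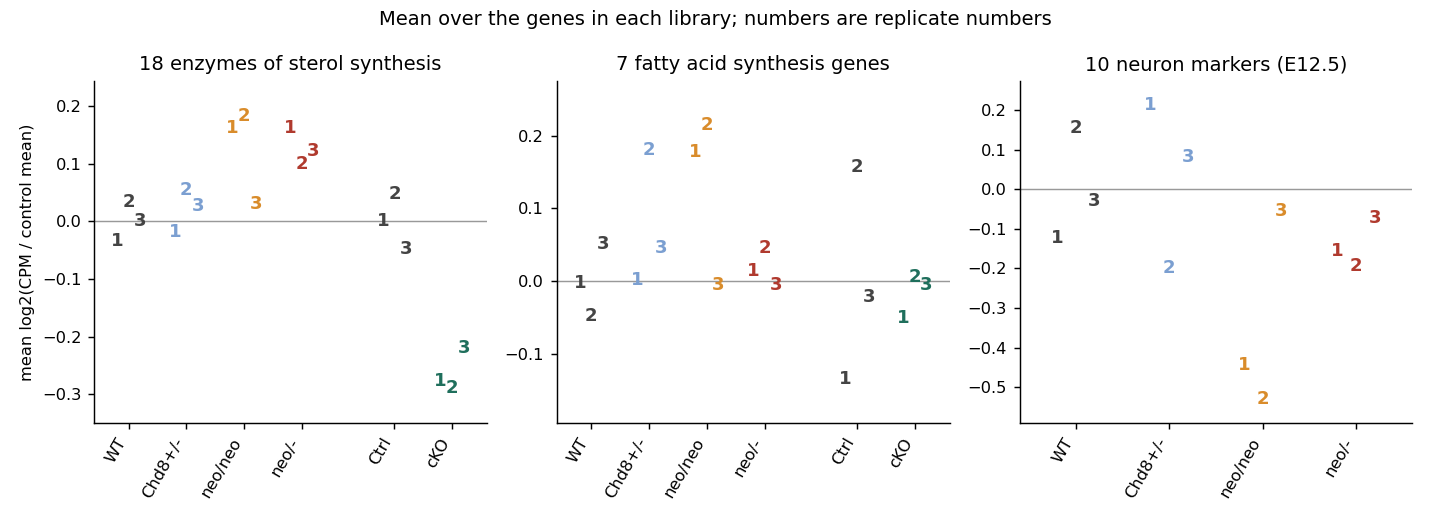
Mean log2 ratio of CPM to the control mean (y axes) over the 18 sterol enzymes, the 7 fatty acid synthesis genes and, at E12.5, 10 neuron markers, where each plotted number is 1 library and gives its replicate number. The cKO libraries sit between -0.29 and -0.22 for the sterol enzymes, and Chd8 neo/neo replicate 3 lies nearer 0 than the other 2 of its group in every panel.

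In heterozygotes none of the 31 genes was called by edgeR, against 0.0213% of all genes, with 2 at an unadjusted p under 0.05, and DESeq2 called 0. All Chd8+/- libraries lay above all wildtype libraries for Insig1, Idi1 and Me1, against 5.48% of all genes. Insig1 stood at 87.1, 91.8 and 95.0 CPM, between wildtype and the hypomorphs, and its difference from wildtype was not called (0.11 ± 0.06, adjusted p = 0.801). Pmvk stood at 28.5, 27.3 and 27.8 CPM, below wildtype in all 3 libraries and again without a call (-0.12 ± 0.05, adjusted p = 0.73).

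Against heterozygotes, 4 of the 31 genes were called higher in Chd8 neo/neo, against 2% of all genes. They were Insig1 (0.31 ± 0.06, adjusted p = 0.0152), Srebf1 (0.36 ± 0.07, adjusted p = 0.0159), Mvk (0.23 ± 0.05, adjusted p = 0.023) and Tm7sf2 (0.29 ± 0.08, adjusted p = 0.0477). With the replicate number as a block, Tm7sf2 was no longer called (adjusted p = 0.0692) and the other 3 were. Without Chd8+/- replicate 1 or Chd8 neo/neo replicate 1 or 2, 0 of the 31 genes were called, without Chd8+/- replicate 3 only Insig1 and Srebf1, and without Chd8 neo/neo replicate 3, 11 were.

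In Chd8 neo/-, Insig1 alone was called higher than in heterozygotes (0.23 ± 0.06, adjusted p = 0.0289), against 2.18% of all genes. Without any Chd8 neo/- library or Chd8+/- replicate 1 or 2 no gene of the list was called, and without wildtype replicate 1, wildtype replicate 2 or Chd8 neo/neo replicate 3 there were 3, 4 and 5. Between Chd8 neo/- and Chd8 neo/neo none of the 31 genes was called by edgeR or DESeq2, against 0.0159% of all genes, with 4 at an unadjusted p under 0.05. In the test for any difference among the 4 genotypes, 7 were called, against 10.7% of all genes, namely Insig1, Srebf1, Mvk, Fdft1, Dhcr7, Mvd and Idi1. That number was 3 without Chd8+/- replicate 3, Chd8 neo/neo replicate 2 or Chd8 neo/- replicate 1 or 2, and 14 without Chd8 neo/neo replicate 3.

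At E10.5, 14 of the 31 genes were called lower in cKO than in Ctrl vesicles, against 5.7% of all genes, and 1 higher, against 5.75%. The 14 were 11 of the 18 sterol enzymes, Insig1, Elovl6 and Stard4. The median log2 fold change was -0.26 over the sterol enzymes and 0.04 over the fatty acid synthesis genes, where the median over all genes was 0.00. All cKO libraries lay below all Ctrl libraries for 18 of the 31 genes, against 16.6% of all genes.

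In the mevalonate stage Hmgcs1 stood at 631, 719 and 646 CPM in Ctrl and 446, 466 and 500.1 CPM in cKO. It fell without overlap between the groups (-0.50 ± 0.07, adjusted p = 0.00205). Idi1 stood at 292, 319.9 and 287 CPM in Ctrl and 218, 226 and 240.5 CPM in cKO (-0.40 ± 0.06, adjusted p = 0.00392). Pmvk stood at 38.8, 33.8 and 31.1 CPM in Ctrl and 28.5, 26.7 and 25.3 CPM in cKO (-0.36 ± 0.09, adjusted p = 0.0259). Neither overlapped, and Pmvk was thus called lower both here and in Chd8 neo/-. Acat2, whose thiolase makes acetoacetyl-CoA and which has a close copy in Acat3 (-0.23 ± 0.06, adjusted p = 0.0273), and Fdps (-0.28 ± 0.07, adjusted p = 0.0326) also fell. Mvk stood at 37.1, 37.6 and 38.7 CPM in Ctrl and 37.5, 36.3 and 39.6 CPM in cKO, where the groups overlapped (0.00 ± 0.06, adjusted p = 0.999).

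In the squalene stage Lss stood at 94.5, 109 and 103 CPM in Ctrl and 76.3, 78.3 and 84.2 CPM in cKO (-0.36 ± 0.07, adjusted p = 0.00854). Fdft1 stood at 133, 129 and 123 CPM in Ctrl and 111, 107 and 116 CPM in cKO (-0.20 ± 0.06, adjusted p = 0.0437). Both fell without overlap, and Sqle was not called (adjusted p = 0.0647).

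In the sterol ring stage Msmo1 stood at 166, 172 and 149 CPM in Ctrl and 102, 110.0 and 122 CPM in cKO, the largest called change of the 31 genes in any comparison with controls (-0.54 ± 0.08, adjusted p = 0.00217). Sc5d stood at 64.1, 72.3 and 66.5 CPM in Ctrl and 49.4, 53.6 and 52.1 CPM in cKO (-0.39 ± 0.06, adjusted p = 0.00459). Both lay lower in every cKO library. Nsdhl stood at 64.1, 66.1 and 64.9 CPM in Ctrl and 51.5, 49.1 and 56.0 CPM in cKO (-0.32 ± 0.06, adjusted p = 0.0109). Tm7sf2 stood at 26.98, 26.5 and 24.3 CPM in Ctrl and 21.4, 18.2 and 20.4 CPM in cKO (-0.37 ± 0.08, adjusted p = 0.0186). These also fell without overlap. Dhcr7 stood at 91.5, 105 and 94.0 CPM in Ctrl and 95.1, 89.7 and 91.0 CPM in cKO and overlapped (adjusted p = 0.507), and the lanosterol demethylase gene Cyp51 missed the threshold (-0.22 ± 0.07, adjusted p = 0.0566).

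Of the regulators, Insig1 stood at 104, 111 and 103 CPM in Ctrl and 82.7, 84.5 and 88.5 CPM in cKO and fell without overlap (-0.32 ± 0.06, adjusted p = 0.00716). Scap, the only one of the 31 genes called higher in cKO, stood at 68.7, 72.5 and 67.9 CPM in Ctrl and 89.5, 92.2 and 89.3 CPM in cKO (0.37 ± 0.06, adjusted p = 0.00255). The other-strand gene 5830462I19Rik covers 13.2% of the exon bases of Scap. Srebf1 stood at 96.3, 102 and 106 CPM in Ctrl and 105, 98.8 and 96.3 CPM in cKO. Srebf2 stood at 242, 288 and 278.1 CPM in Ctrl and 295, 298 and 308 CPM in cKO. Insig2 stood at 21.4, 20.3 and 19.9 CPM in Ctrl and 18.5, 18.8 and 19.3 CPM in cKO. Srebf1 overlapped between the groups, Srebf2 lay higher and Insig2 lower in every cKO library, and none of these 3 was called (adjusted p = 0.885, 0.171 and 0.321).

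Of the 7 fatty acid synthesis genes edgeR called 1 lower, against 5.7% of all genes. DESeq2 called 3, and 5 had an unadjusted p under 0.05, counts without a share of all genes beside them. The 7 went both ways, with 4 positive and 3 negative log2 fold changes. The gene called by edgeR was Elovl6, which fell from 157, 194 and 172 CPM in Ctrl to 139, 141 and 142 CPM in cKO (-0.31 ± 0.07, adjusted p = 0.0217). Fasn stood at 453 to 607 CPM in Ctrl and 614 to 657 CPM in cKO, higher in every cKO library but not called (0.23 ± 0.10, adjusted p = 0.149). Scd2 lay lower in every cKO library, also without a call (-0.21 ± 0.07, adjusted p = 0.0926). The sterol carrier gene Stard4 fell from 85.5, 87.9 and 83.8 CPM to 61.5, 67.1 and 70.1 CPM (-0.37 ± 0.06, adjusted p = 0.00488).

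The calls of Hmgcs1, Msmo1, Idi1, Sc5d, Stard4 and Scap in cKO were kept under every alternative tried and without any one library. Without cKO replicate 2 these 6 were the only calls, and Insig1 (adjusted p = 0.0542), Lss (0.0561) and Nsdhl (0.0797) were lost without that library alone. Tm7sf2 was lost without cKO replicate 2 or 3 (highest adjusted p = 0.109), and Pmvk also without Ctrl replicate 1 (0.105). Elovl6 and Acat2 were lost without any cKO library or Ctrl replicate 3 (highest adjusted p = 0.0919 and 0.145). Fdps was kept only without cKO replicate 1 (highest adjusted p = 0.171), and Fdft1 was lost whichever library was left out (0.215).

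Of the marker lists at E10.5, 2 of 7 mesenchyme and meninges markers (Col1a2 and Col3a1) were called higher in cKO, with sums of 648 to 737 CPM in Ctrl and 808 to 999 CPM in cKO. Also called higher were 1 endothelial marker of 7 and 1 macrophage marker of 5. The ventral marker Gsx2 was called lower. Over all genes tested 5.75% were called higher and 5.7% lower. Of the neuron and radial glia markers none was called by edgeR, with 1 and 2 at an unadjusted p under 0.05, while DESeq2 called 0 and 2 (Pax6 and Fabp7), and the neuron sums were 225 to 411 CPM in Ctrl and 268 to 370 CPM in cKO. The part of these in the fall of the sterol genes was not tested.

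**Figure D4:**
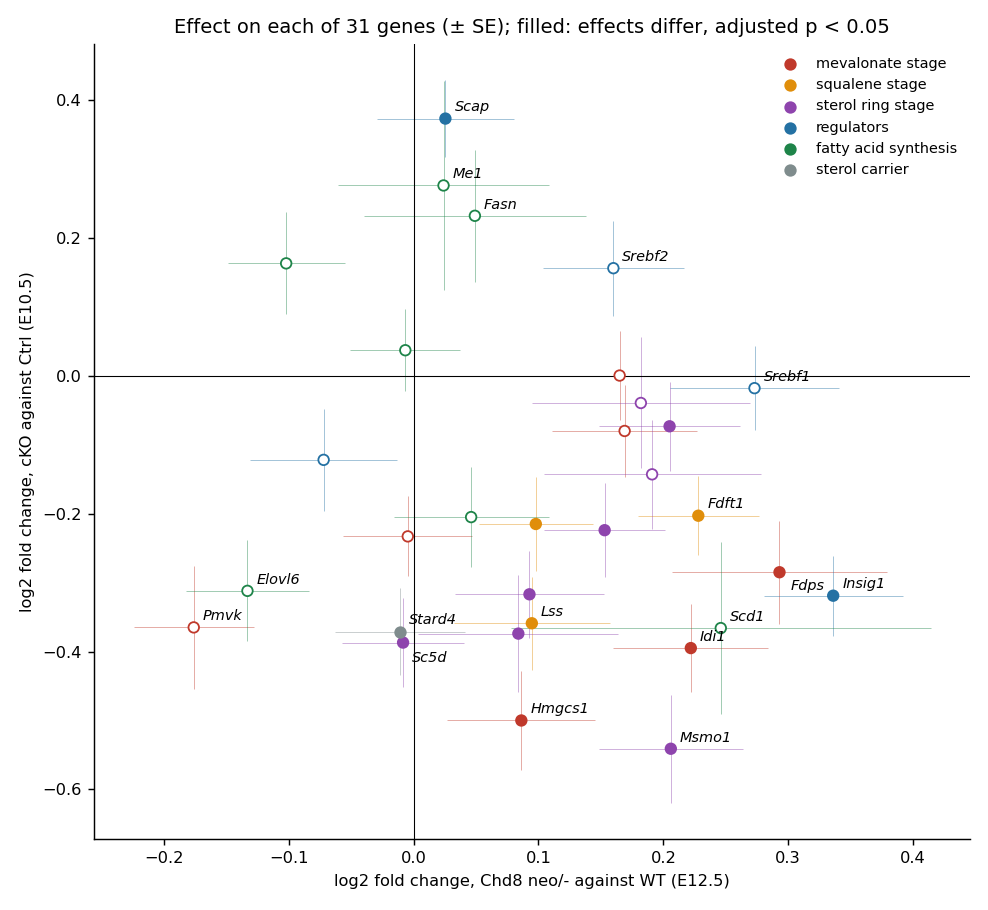
Log2 fold change ± SE of each of the 31 genes in Chd8 neo/- against WT at E12.5 (x axis) and in cKO against Ctrl at E10.5 (y axis), coloured by role, with filled circles where the 2 effects differ at an adjusted p under 0.05. Insig1 and most sterol enzymes lie at the lower right, with positive values in Chd8 neo/- and negative values in cKO, and Scap lies at the top.

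The cKO effect was then tested against each hypomorph effect, as an interaction in 1 edgeR fit over all 18 libraries and 19565 genes; the 2 contrasts of each test share no library. The cKO effect was lower than the Chd8 neo/- effect for 14 of the 31 genes, against 2.89% of all genes, and higher for 1, against 3.9%. It was lower than the Chd8 neo/neo effect for 17, against 3.16%, and higher for 1, against 3.64%. In each test 12 of the 18 sterol enzymes were called and all 18 differences were negative, with medians of -0.38 and -0.385, where the medians over all genes were -0.02. Insig1 had the smallest adjusted p of the 31 in both, with differences of -0.66 ± 0.08 (adjusted p = 3.99e-05) and -0.73 ± 0.08 (adjusted p = 1e-05). Cyp51 and Sqle, called in neither contrast alone, were called in both tests. The gene called higher was Scap in each, and with length and GC trends removed it was called in neither, at 0.17 (adjusted p = 0.27) against Chd8 neo/- and 0.11 (adjusted p = 0.489) against Chd8 neo/neo. Stage, dissection, pooling of embryos, sequencing runs, control genotype and the kind of Chd8 allele changed together between the experiments and cannot be told apart. The mixture of Xist and Y-linked RNA in every cKO pool and no Ctrl library cannot be told apart from the cKO effect either.

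Of 48 other genes of the pathway, in the isoprenoid branch, sterol export and storage, SREBP processing, and fatty acid and phospholipid synthesis, 46 were tested at each stage. Among mild hypomorphs 2 rose and 2 fell, among severe hypomorphs 3 rose and 2 fell, and in cKO 3 rose and 5 fell. Over all genes tested 3.71% and 4.45%, 5.48% and 5.99%, and 5.75% and 5.7% were called higher and lower, so that most of these counts are near the background. The median log2 fold changes of the 46 were 0.05, 0.04 and -0.01. In Chd8+/- edgeR and DESeq2 called none, with 3 at an unadjusted p under 0.05. Abca1, the cholesterol exporter gene, stood at 50.7, 47.3 and 49.6 CPM in wildtype, 32.5, 35.2 and 41.2 CPM in mild and 38.0, 38.9 and 41.0 CPM in severe hypomorphs. It was lower in every hypomorph library (-0.44 ± 0.07, adjusted p = 0.00363, and -0.32 ± 0.07, adjusted p = 0.00918) and was not called in cKO (adjusted p = 0.486).

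Mbtps2, the X-linked gene of a protease that releases active SREBP, fell in Chd8 neo/neo (-0.20 ± 0.05, adjusted p = 0.0177) and Chd8 neo/- (-0.24 ± 0.05, adjusted p = 0.00425). Aacs, whose enzyme activates acetoacetate for lipid synthesis, stood at 42.8, 44.1 and 44.0 CPM in wildtype, 52.6, 53.9 and 49.9 CPM in mild and 50.8, 50.6 and 47.2 CPM in severe hypomorphs. It rose in both (0.26 ± 0.05, adjusted p = 0.00658, and 0.18 ± 0.05, adjusted p = 0.0217). In cKO, given here after its values were seen, Aacs was lower in every library (51.8, 60.5 and 59.8 CPM in Ctrl against 49.0, 47.6 and 49.4 CPM, -0.24 ± 0.07, adjusted p = 0.0485). Hsd17b12, a gene of fatty acid elongation, rose in Chd8 neo/- (0.18 ± 0.04, adjusted p = 0.0108). In cKO the phospholipid synthesis gene Pcyt2 (-0.36 ± 0.06, adjusted p = 0.00552) and the acyl-CoA ligase gene Acsl3 (-0.26 ± 0.05, adjusted p = 0.0119) fell, and the farnesyltransferase subunit gene Fntb rose (0.32 ± 0.06, adjusted p = 0.00985).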

How the data were processed

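Libraries from mRNA of E12.5 neocortex (12) and E10.5 telencephalic vesicles (6) were analysed from 2 deposited tables of raw counts per gene. The authors trimmed reads with Trim Galore 0.4.1 after FastQC 0.11.2, aligned them to GRCm38 with TopHat2 2.1.0 and counted them over Ensembl genes with featureCounts 1.5.0. The counting was unstranded for E12.5 and its strand setting for E10.5 was not given in the sources used here, so overlapping genes on opposite strands may share counts. Counts of the 2 runs of each library were summed, all columns were used, and genes were kept by filterByExpr and scaled by TMM. Groups were compared with edgeR 4.0.16 in R 4.3.3 (glmQLFit with robust estimation, glmQLFTest), in 1 fit for the 4 genotypes at E12.5, 1 for E10.5 and 1 over all 18 libraries for the differences of effects. DESeq2 1.42.0 was an alternative, and others were scaling, no filter, each run alone, removal of length and GC trends, the replicate number as a block, the Xist class, a fit of only the groups compared, and leaving out each library. The fits were tested on simulated data. Python 3.11.15 (pandas 2.3.3; matplotlib 3.10.9) made the tables and figures.

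The members and lists were chosen with earlier results of these data known. Values of every library are given for the 5 regulators and for up to 16 genes with the smallest adjusted p among those called between 2 groups. Of the other pathway lists, up to 3 genes are named per comparison. Shares of all genes called are given for the main edgeR fits only, and not for DESeq2, unadjusted p-values or refits. Replicates were labelled as separate samples and, per the methods, came from different litters, and p-values measure the spread between these samples. Between heterozygotes and mild hypomorphs, libraries of the same number deviated together (correlations 0.252, 0.266 and 0.374), and no other comparison showed this in every pair. These values do not establish pairing. The labels give no source for it, and per the methods the 2 genotypes came from different crosses. Libraries of different number also correlated, by 0.49 for wildtype replicate 2 and Chd8 neo/neo replicate 3. Depth was 38774591 to 68488879 counts, and the share of counting error in the spread between libraries was not measured. The number of libraries also limits the precision.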

Additional observations from a re-analysis of the deposited data

Results flagged for a closer look

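The effect of Chd8 loss differed between the E10.5 knockouts and the E12.5 hypomorphs by a direct test of the difference, the interaction in edgeR's quasi-likelihood test with Benjamini-Hochberg adjustment over all genes tested. Each value below is the log2 fold change of cKO against Ctrl minus that of a hypomorph against wildtype, ± SE. A negative value means that the gene lay lower in cKO, relative to its control, than in the hypomorph.

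Among the regulators, Insig1 differed by -0.66 ± 0.08 (adjusted p = 3.99e-05) against severe and -0.73 ± 0.08 (adjusted p = 1e-05) against mild hypomorphs. Scap differed the other way, by 0.35 ± 0.07 (adjusted p = 0.00904) against severe and 0.26 ± 0.07 (adjusted p = 0.0397) against mild hypomorphs, but with length and GC trends removed these values were 0.17 and 0.11 and neither was called (adjusted p 0.27 and 0.489). Against mild hypomorphs it was also lost with the second run alone and with the replicate block. Srebf1 differed by -0.44 ± 0.09 (adjusted p = 0.00854) against mild hypomorphs.

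In the mevalonate stage Hmgcs1 differed by -0.59 ± 0.09 (adjusted p = 0.00082) against severe and -0.59 ± 0.09 (adjusted p = 0.000653) against mild hypomorphs. Idi1 differed by -0.62 ± 0.09 (adjusted p = 0.000412) against severe and -0.64 ± 0.09 (adjusted p = 0.00026) against mild hypomorphs. The difference for Fdps was -0.58 ± 0.12 (adjusted p = 0.0066) against severe and -0.51 ± 0.12 (adjusted p = 0.0128) against mild hypomorphs. These 3 had positive values in both hypomorphs and were called lower in cKO.

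In the squalene stage Fdft1 differed by -0.43 ± 0.07 (adjusted p = 0.00183) against severe and -0.29 ± 0.07 (adjusted p = 0.0214) against mild hypomorphs. The difference for Lss was -0.46 ± 0.09 (adjusted p = 0.00648) against severe and -0.56 ± 0.09 (adjusted p = 0.00124) against mild hypomorphs. For Sqle it was -0.31 ± 0.08 (adjusted p = 0.0193) against severe and -0.31 ± 0.08 (adjusted p = 0.0202) against mild hypomorphs.

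In the sterol ring stage Msmo1 had the largest difference of the sterol enzymes, -0.75 ± 0.10 (adjusted p = 0.000193) against severe and -0.71 ± 0.10 (adjusted p = 0.000262) against mild hypomorphs. Sc5d differed by -0.38 ± 0.07 (adjusted p = 0.00604) against severe and -0.41 ± 0.07 (adjusted p = 0.00341) against mild hypomorphs. For Nsdhl the difference was -0.41 ± 0.09 (adjusted p = 0.00861) against severe and -0.38 ± 0.09 (adjusted p = 0.0121) against mild hypomorphs. With length and GC trends removed, Sc5d and Nsdhl lost their calls against severe hypomorphs (adjusted p 0.0815 and 0.0648) and kept them against mild hypomorphs. Cyp51 was called in neither contrast alone and differed by -0.38 ± 0.08 (adjusted p = 0.00916) against severe and -0.39 ± 0.08 (adjusted p = 0.00744) against mild hypomorphs. Tm7sf2 differed by -0.46 ± 0.12 (adjusted p = 0.0251) against severe and -0.60 ± 0.12 (adjusted p = 0.00489) against mild hypomorphs. Dhcr7, which had overlapping groups at E10.5, differed by -0.28 ± 0.08 (adjusted p = 0.0455) against severe and -0.31 ± 0.08 (adjusted p = 0.03) against mild hypomorphs.

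The sterol carrier gene Stard4 differed by -0.36 ± 0.08 (adjusted p = 0.00964) against severe and -0.48 ± 0.08 (adjusted p = 0.00131) against mild hypomorphs. Of the fatty acid synthesis genes, Scd1 differed by -0.86 ± 0.23 (adjusted p = 0.0419) and Scd2 by -0.33 ± 0.09 (adjusted p = 0.0366) against mild hypomorphs. As Scd1 and Scd2 are closely related in sequence, reads may be shared between them.

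The 2 tests share the cKO, Ctrl and wildtype libraries. Against severe hypomorphs, Sqle was lost without Chd8 neo/- replicate 1 or 3 (highest adjusted p = 0.0601), Tm7sf2 without any one of 5 libraries (0.084) and Dhcr7 in 13 of the 18 fits that left out 1 library (0.124). Against mild hypomorphs, Scd1 was lost in 14 of those fits, Scd2 in 11, Scap in 9, Dhcr7 in 7, and Sqle and Fdft1 in 3 each. Of the other alternatives, Dhcr7 was lost under 4 against severe and 1 against mild hypomorphs, and against mild hypomorphs Scd1 was lost under 2 and Scd2 under 1. Groups of 3 libraries were too small to test for single outlying libraries.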

How the results depend on the processing

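Counts below are of the 31 genes called, and no result changed direction. The numbers called over all genes under the same alternatives are not set beside them. Whether a shift is particular to the list is thus not shown. In Chd8 neo/neo against wildtype the count was 6, and 10 with DESeq2, 3 with the Xist class as a covariate and 2 when only these groups were fitted. In Chd8 neo/- against wildtype it was 9, and 5 with the second sequencing run alone, 4 with length and GC trends removed and 4 with the replicate block. Against heterozygotes the count in Chd8 neo/neo was 4, and 2 with the second run alone and 1 with only these groups. In Chd8 neo/- it was 1, and 4 with DESeq2, 2 with upper quartile scaling, 2 with the second run alone, 0 with length and GC trends removed, 0 with the replicate block and 7 with only these groups. For any genotype difference it was 7, and 12 with DESeq2 and 3 with the second run alone. The cause of these shifts was not tested.

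Leaving out 1 library gave 2 to 14 calls in Chd8 neo/neo, 2 to 11 in Chd8 neo/-, 0 to 11 and 0 to 5 against heterozygotes, 3 to 14 for any difference, 6 to 15 in cKO, and 12 to 17 and 12 to 22 for the differences of effects. For Chd8+/- and between the hypomorphs it gave 0. With the replicate block the counts were 4 in Chd8 neo/neo, 16 in cKO, and 16 and 18 for the differences of effects. Same-numbered libraries correlated in every pair only between Chd8+/- and Chd8 neo/neo. Of the results for single genes, 749 kept and 175 lost their call when a library was left out, and 521 kept and 63 lost it under the other alternatives.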
